A study of Mus musculus with 45 samples.

Results

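Chemokine ligand and receptor genes were followed through the liver binding map of REV-ERBα, a nuclear receptor of the circadian clock. The genes were chosen by symbol alone, as protein-coding mouse genes named Ccl, Cxcl or Cx3cl (ligands) or Ccr, Cxcr or Cx3cr (receptors) with a number. This took 55 genes, 38 ligands and 17 receptors. One ligand gene, Ccl21c, lies on an unplaced scaffold and was not analysed here, which left 54 of the 21521 protein-coding genes placed on chromosomes 1 to 19 and X. Cxcl11, a ligand gene in other mammals, is a transcribed pseudogene in the RefSeq table used here and was not a member.

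Chemokines are small secreted proteins that steer migrating cells, and their receptors are G protein-coupled receptors carried mostly by leukocytes. They are named after the spacing of their first cysteines, as CC, CXC and CX3C ligands, and several are made by hepatocytes and other resident liver cells when cytokines or bacterial products activate NF-κB. REV-ERBα binds DNA at the core motif AGGTCA with an A and T rich flank, or at a pair of such motifs, and represses transcription by recruiting the corepressor NCOR1 and its histone deacetylase HDAC3; it can also be tethered to DNA through other factors.

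Binding was measured by chromatin immunoprecipitation with sequencing (ChIP-seq) in livers of REV-ERBa3HA/3HA mice, whose own REV-ERBα carries a 3HA epitope tag on both alleles, with anti-HA magnetic beads and with no AAV vector given. Livers were taken at zeitgeber time (ZT) 10, when REV-ERBα protein is abundant, and at ZT22, when it is scarce, with 4 samples at each time. Each time has 1 peak list, made by the authors from its 4 samples together, so the values have no spread between replicates and no p-value was computed. The other 37 of the 45 samples, anti-HA on untagged liver among them, were not analysed here.

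The ZT10 list held 27929 peaks, whose median fold was 6.81, and the ZT22 list held 36. The fold is the authors' value for each peak, the signal at its summit (the base of highest signal) relative to local background, and it is used here only within a list. The lowest fold at ZT10 was 4.01, so weaker sites are not in the list. Summit heights were solved as fragments from fold and −log10 p, and all 34 summits near chemokine genes came out whole, at 83 to 469 fragments. A summit of 83 fragments has a 95% interval of 66.1 to 103 and one of 469 an interval of 428 to 513 (exact Poisson, counting error only). The ZT22 pool had 0.970 times as many fragments as that of ZT10, provided that both lists used a common control. Whole liver was used, so strong binding in few cells and weak binding in many cannot be told apart.

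Promoters are shown for 5 of the 6 ligand genes that had a ZT10 summit within 500 bp of an annotated start, since these sites lay closest to where transcription of a chemokine gene begins. Each runs 5′ to 3′ over 300 bases, from 250 before the start to 50 after it, and comes from RefSeq (GRCm38.p6). Capitals mark the core motif AGGTCA, the related hexamer with its flank TGGGTCA, and the NF-κB consensus by name. The matches are read beside the binding values further on.
Cxcl1, chr5:90890995-90891294, plus strand: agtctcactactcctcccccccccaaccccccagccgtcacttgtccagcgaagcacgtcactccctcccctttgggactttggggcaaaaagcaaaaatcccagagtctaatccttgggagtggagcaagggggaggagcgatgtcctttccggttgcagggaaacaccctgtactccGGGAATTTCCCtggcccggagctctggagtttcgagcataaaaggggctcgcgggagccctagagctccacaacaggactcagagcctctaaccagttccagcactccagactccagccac
Cxcl10, chr5:92348840-92349139, minus strand: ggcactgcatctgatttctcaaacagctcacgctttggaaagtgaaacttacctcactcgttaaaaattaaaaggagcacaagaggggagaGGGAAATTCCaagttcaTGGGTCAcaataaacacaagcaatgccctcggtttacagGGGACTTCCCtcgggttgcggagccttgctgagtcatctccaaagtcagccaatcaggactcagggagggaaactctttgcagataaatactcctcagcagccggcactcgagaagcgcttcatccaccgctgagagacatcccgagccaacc
Cxcl9, chr5:92328030-92328329, minus strand: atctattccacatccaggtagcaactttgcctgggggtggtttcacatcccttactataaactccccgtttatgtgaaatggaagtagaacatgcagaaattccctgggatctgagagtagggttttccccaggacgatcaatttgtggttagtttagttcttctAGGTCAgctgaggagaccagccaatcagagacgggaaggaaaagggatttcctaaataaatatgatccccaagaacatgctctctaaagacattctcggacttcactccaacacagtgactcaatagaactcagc
Ccl9, chr11:83578587-83578886, minus strand: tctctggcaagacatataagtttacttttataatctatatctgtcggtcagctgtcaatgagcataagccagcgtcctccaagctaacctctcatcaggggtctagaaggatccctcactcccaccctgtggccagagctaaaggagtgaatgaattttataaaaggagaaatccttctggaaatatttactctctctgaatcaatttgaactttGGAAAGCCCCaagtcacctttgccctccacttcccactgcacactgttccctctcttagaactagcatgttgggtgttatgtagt
Ccl27a, chr4:41774127-41774426, minus strand: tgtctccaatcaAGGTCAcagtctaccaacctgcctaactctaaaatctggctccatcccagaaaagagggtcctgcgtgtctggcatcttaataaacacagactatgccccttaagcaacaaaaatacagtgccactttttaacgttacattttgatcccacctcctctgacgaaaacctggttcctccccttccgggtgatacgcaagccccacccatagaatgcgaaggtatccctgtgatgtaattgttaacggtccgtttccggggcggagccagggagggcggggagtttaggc

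At ZT10, 17 of the 54 chemokine genes (31.5%) had a REV-ERBα summit inside the gene span or within 10 kb of it, against 54.8% of all protein-coding genes. Chemokine genes are short, with a median span of 5.16 kb against 17.4 kb for all genes, and a long gene offers more room for a summit. Among the 7675 genes with a span of at most 10 kb, a background chosen after seeing the data, 39.7% had a summit. Ligands and receptors had nearly the same share, at 12 of 37 (32.4%) and 5 of 17 (29.4%). The ligands with a summit were Cxcl12, Cxcl1, Cxcl9, Cxcl10, Ccl25, Ccl6, Ccl9, Cxcl17, Ccl27a, Cxcl16, Cxcl2 and Ccl4, and the receptors were Ccr7, Ccr10, Cxcr1, Cx3cr1 and Cxcr5.

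At the genes that had any site, ligands had more sites than receptors and reached higher folds, with overlapping ranges. Of the 12 ligand genes, 9 had at least 2 summits and the most was 4, with a median of 2.50, while 3 of the 5 receptor genes had 1 summit and the most was 3. Of all 11786 protein-coding genes with a summit, 6913 had at least 2. Of the 3045 with a span of at most 10 kb, 1512 did. In the ligand numbers, 3 summits count for 2 genes each, those shared by Ccl6 and Ccl9 and by Cxcl1 and Cxcl2. The strongest fold per gene ran from 4.83 to 21.7 in ligands, with a median of 9.98, and from 4.24 to 10.0 in receptors, with a median of 9.01. The 5 highest values all belonged to ligands, but the order of the medians turned with a reach of 2 kb (7.77 and 8.37) and with each summit given to its nearest gene only (6.89 and 9.01). Over all protein-coding genes with a summit the median was 7.82, and over those with a span of at most 10 kb it was 7.13. Per length of gene and flanks, ligands had 2.75 summits in 100 kb and receptors 1.63, where all genes had 1.68 and short genes 2.50.

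**Figure D1:**
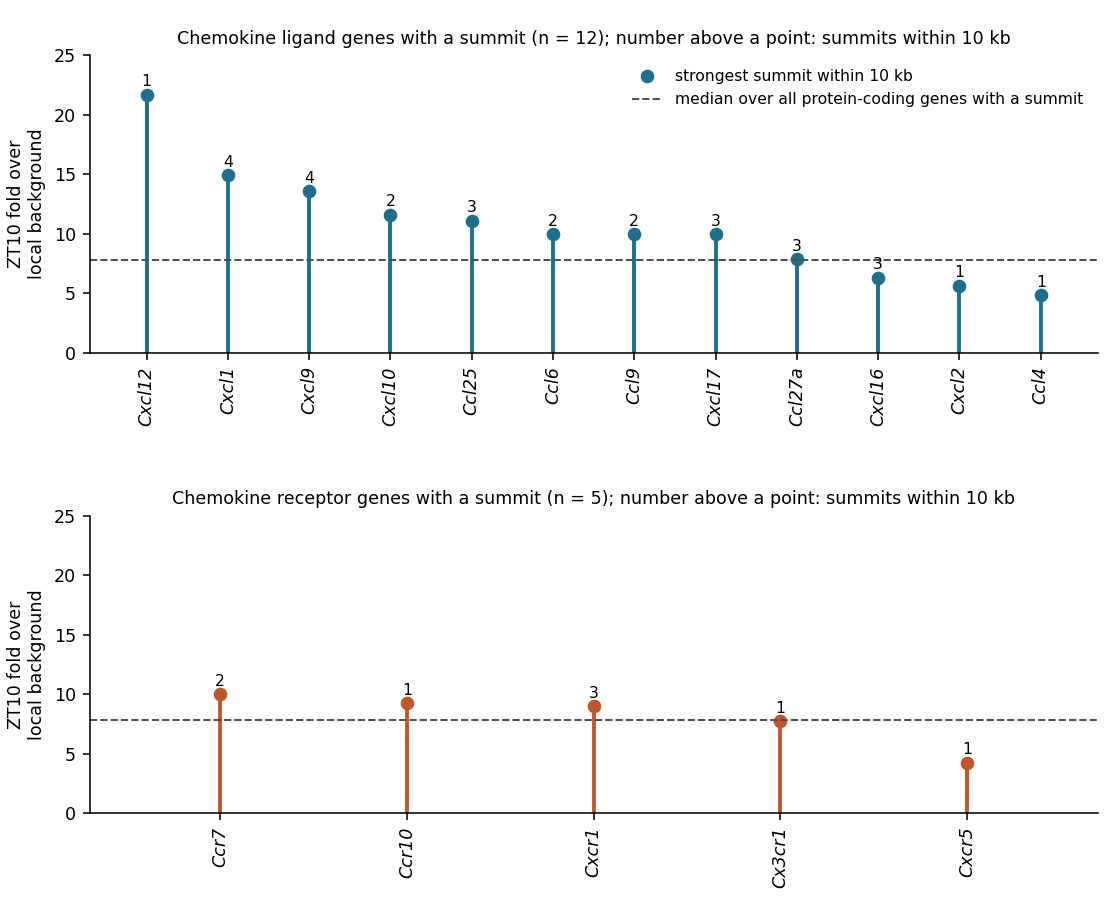
Strongest ZT10 fold over local background (vertical axis) within 10 kb of each of the 12 ligand genes (upper panel) and 5 receptor genes (lower panel) with a summit, with the number of summits above each point. The dashed line is the median of 7.82 over all protein-coding genes with a summit: 9 of the 12 ligand genes and 3 of the 5 receptor genes lie above it. The 25 ligand and 12 receptor genes without a summit are not drawn.

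The split by structure was wider than the split by role. CXC ligands had a summit at 7 of 12 genes (58.3%) and CC ligands at 5 of 24 (20.8%), and Cx3cl1, which encodes the membrane-bound ligand fractalkine, had none. The share was 54.8% over all protein-coding genes and 39.7% over those with a span of at most 10 kb. The symbol rule leaves out Ppbp and Pf4, chemokine system genes inside a CXC cluster, and neither had a summit within 10 kb. Counting them as CXC ligands would lower the CXC share. Summits were 5.96 per 100 kb around CXC ligand genes and 1.43 around CC ligand genes. CXC receptors had a summit at 2 of 6 genes (33.3%) and CC receptors at 2 of 10, and Cx3cr1 had 1. The median strongest fold was 11.6 in CXC and 9.98 in CC ligand genes with a summit. Neighbouring genes can share summits and whole clusters can lack them, so these genes are not independent observations, and no test was run on the difference.

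At ZT22, 0 of the 54 genes had a summit within 10 kb, and 15 of all 21521 genes (0.0697%) had one. The nearest ZT22 summit to any member lay 729951 bp from Ccr6. The weakest ZT22 peak held 82 fragments, so a site of fewer fragments at ZT22 would not be in that list. Whether the height at these sites differed between the times could not be tested from lists pooled by time.

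The strongest site of all belonged to Cxcl12, a constitutively made CXC ligand that holds blood stem cells and lymphocytes in their niches through CXCR4. Its peak was 7501 bp wide with 1 summit inside the gene, 1529 bp downstream of the annotated start, at a fold of 21.7 (469 fragments). That ranked 955 in the ZT10 list, and 94.6% of all genes with a summit had a lower strongest fold. It was also the sole summit within 50 kb of the gene.

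Cxcl1 and Cxcl2 encode ligands of CXCR2 that draw neutrophils. Cxcl1 had 4 summits within 10 kb, and the strongest, with a fold of 14.9 (321 fragments, 95% interval 287 to 358), lay 241 bp before its start in a peak 5002 bp wide. The next had a fold of 14.4 (309 fragments, 276 to 345) at 6094 bp before the start, and their intervals overlapped. The others had folds of 5.64 at 7271 bp and 4.01 at 9897 bp. The summit of fold 5.64 lay between the genes and was the one site that reached Cxcl2, 3507 bp before its start. The remaining neutrophil-attracting members of the same cluster, Cxcl3, Cxcl5 and Cxcl15, had 0 summits within 10 kb, with the nearest at 63456, 69343 and 48482 bp. Cxcl5, which encodes another neutrophil attractant, has been described as a target of REV-ERBα in the lung, and here it had none within 50 kb.

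Cxcl9 and Cxcl10, whose products attract T cells through CXCR3 after interferon exposure, both had sites. Cxcl9 had 4 summits, with folds of 13.6 inside the gene 5076 bp from the start (292 fragments), 8.69 inside the gene 493 bp from the start (185 fragments), 5.75 at 2746 bp and 5.11 at 4550 bp. At Cxcl10 the summit of fold 11.6 (291 fragments) lay 4507 bp before the start and that of fold 7.77 (165 fragments) 257 bp before it. Both lay inside the span of Art3, an ADP-ribosyltransferase gene in which Cxcl10 is nested. Art3 was also the nearest protein-coding gene to the Cxcl9 summits of folds 5.75 and 5.11. The strongest site at Cxcl9 thus sat in the gene body and that at Cxcl10 upstream of the start.

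Cxcl16 and Cxcl17 shared their sites with neighbours of other function. Cxcl16 encodes a membrane-anchored ligand of CXCR6, and its 3 summits had folds of 6.30 at 2335 bp, 5.48 at 9202 bp and 4.28 inside the gene. The strongest lay 136 bp from a start of Med11, a Mediator subunit gene, and the one inside also lay in Zmynd15. Cxcl17 encodes a mucosal chemokine, and its strongest summit (fold 9.98, 213 fragments, 4068 bp away) lay 2 bp from a start of Lipe, the gene of hormone-sensitive lipase. A second, of fold 8.37, lay inside Cxcl17, and another, of fold 5.61, lay 7293 bp away. Cxcl13, Cxcl14 and Cxcl15 completed the CXC ligand members without a summit together with Cxcl3 and Cxcl5.

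**Figure D2:**
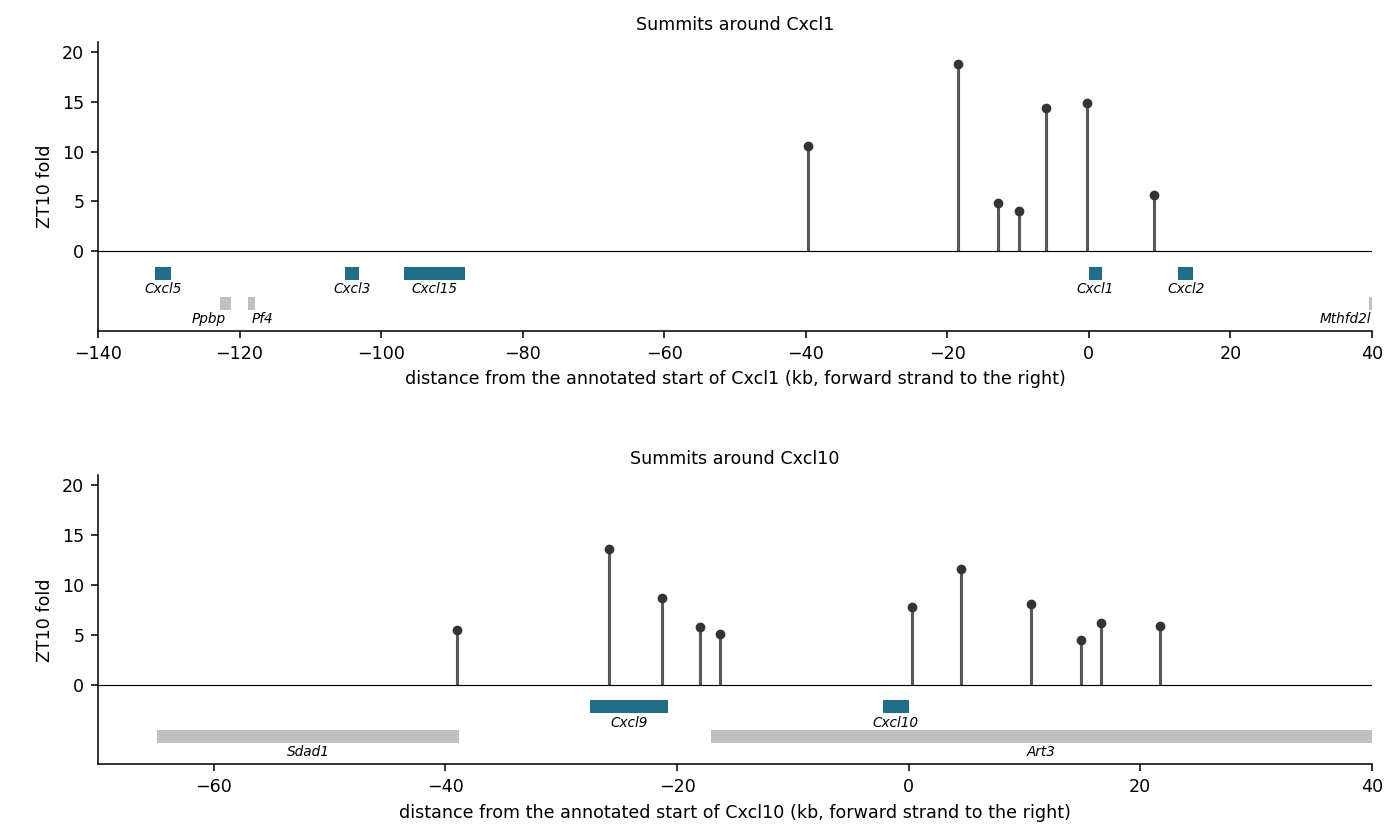
ZT10 summits (points, fold on the vertical axis) by distance in kb from the annotated start of Cxcl1 (upper panel) and Cxcl10 (lower panel). Bars below the line are gene spans, with member genes in blue and all others, Ppbp and Pf4 among them, in grey. Summits crowd around Cxcl1, Cxcl9 and Cxcl10, and no summit lies between Cxcl5 and Cxcl15 in the upper panel.

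The CXC clusters on chromosome 5 held sites unevenly along their length. Between the outer ends of Cxcl5 and Cxcl2, 147 kb with 5 member genes and with Ppbp and Pf4, lay 7 summits (4.77 per 100 kb). The strongest had a fold of 18.8 and lay 18513 bp before Cxcl1, outside the 10 kb reach, and another of fold 10.6 stands at -39.7 kb from its start on the map. The 27.6 kb from Cxcl9 to Cxcl10 held 4 summits, or 14.5 per 100 kb. These were the summits of Cxcl9, and none of them lay within 10 kb of Cxcl10. Over the whole genome the density was 1.06 per 100 kb. Within 10 kb of all protein-coding genes it was 1.68, and for those with a span of at most 10 kb it was 2.50.

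CC ligand genes were mostly bare. The chromosome 11 cluster of Ccl2, Ccl7, Ccl11, Ccl12, Ccl8 and Ccl1 spans 144 kb, with 6 genes for monocyte, eosinophil and T cell attractants. It held 0 summits. The density over the whole genome was 1.06 per 100 kb, so few summits are to be expected in a stretch of this length. Ccl2, which encodes the main monocyte attractant and is a described target of REV-ERBα in macrophages, had its nearest summit 15573 bp away with a fold of 6.72. All 4 monocyte-attracting CC genes (Ccl2, Ccl7, Ccl8 and Ccl12) and all 3 eotaxin genes (Ccl11, Ccl24 and Ccl26) lacked a summit within 10 kb. So did both CCR4 ligand genes (Ccl17 and Ccl22). The share with a summit was 54.8% over all protein-coding genes and 39.7% over those with a span of at most 10 kb. Some of these ligand genes are neighbours in 1 cluster, so they are not independent observations.

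The second chromosome 11 cluster, 139 kb from Ccl5 to Ccl4 with 5 ligand genes, held 3 summits (2.16 per 100 kb). Ccl6 and Ccl9 are neighbours that encode CCR1 ligands known in rodents, and they shared 2 summits. The first, with a fold of 9.98 (213 fragments), lay between them at 4376 bp from Ccl6 and 4874 bp before the start of Ccl9. The other, with a fold of 6.89 (200 fragments), lay 11 bp before the start of Ccl9 and 9239 bp from Ccl6. Its local background was higher than at the first. Ccl4, whose product draws monocytes and T cells, had 1 summit of fold 4.83 (101 fragments) at 7374 bp. Ccl3, whose RefSeq span overlaps that of Ccl4, and Ccl5 had none within 10 kb, and the nearest to Ccl5 lay 32179 bp away with a fold of 15.4.

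Among the homeostatic ligand genes, whose products guide resting lymphocytes, 3 of 10 had a summit: Cxcl12, Ccl25 and Ccl27a. Ccl25 encodes the CCR9 ligand of thymus and gut. It had a summit of fold 6.03 (149 fragments) 83 bp after its upstream annotated start. Its downstream annotated start had 0 summits within 500 bp. Another summit had a fold of 5.71 at 1106 bp. The strongest, of fold 11.1 (238 fragments), lay 5615 bp away inside Elavl1, an RNA-binding protein gene. That summit lay 5510 bp from a start of Elavl1, which is thus close to the upstream start of Ccl25. Whether the summit of fold 6.03 belongs to Ccl25 or to Elavl1 was not tested. Ccl27a encodes a skin-homing ligand of CCR10 and had 2 summits at its start region, with folds of 5.94 (316 bp after its nearest annotated start) and 5.34 (133 bp before another annotated start). The remaining one, of fold 7.87, lay 8952 bp away and 72 bp from a start of Il11ra1, the interleukin-11 receptor gene.

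Some chromosome 4 ligand genes have nearly identical promoters. The promoter windows of Ccl21d and Ccl21a were identical at 297 of 300 bases (99.0%), and those of Ccl27a and Ccl27b at 286 (95.3%). Reads from such copies may not be assigned to 1 of them, so the absence of a peak at Ccl21a, Ccl21d and Ccl27b is uncertain. The CC ligand share counts these genes as without a summit. For the same reason it is uncertain whether the start region summits of folds 5.94 and 5.34 belong to Ccl27a alone. The window of Ccl21b matched those of Ccl21a and Ccl21d at 171 bases (57.0%), less than the 184 (61.3%) shared by Ccl21d and Ccl19. However, the RefSeq span of Ccl21b is 83706 bp, against 1132 bp for Ccl21a and 1131 bp for Ccl21d. Only the window at its start was compared, so the low match does not make the absence of a peak at Ccl21b certain. The largest distance to a summit among members, 399 kb at Ccl21b, was in the same region.

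Receptor genes had 8 distinct summits. Ccr7, whose product brings dendritic cells and T cells to lymph nodes, had the strongest, with folds of 10.0 at 5395 bp (214 fragments) and 7.13 at 2202 bp (151 fragments). Ccr10, a receptor of skin and mucosal lymphocytes, had 1 summit of fold 9.24 (197 fragments) at 1078 bp, which lay 542 bp from Plekhh3, its nearer neighbour. Cxcr1, which encodes a neutrophil receptor, had folds of 9.01 at 1133 bp, 8.0 at 2442 bp and 6.53 inside the gene, with fragment intervals of 166 to 221, 145 to 198 and 116 to 163. The middle interval overlapped both others, while those of the highest and the lowest summit did not overlap.

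The other 2 receptor genes had single sites. Cx3cr1, the fractalkine receptor of monocytes and a described target of REV-ERBα in macrophages, had a fold of 7.73 (164 fragments) inside the gene but 19514 bp from its start, near the 3′ end. Cxcr5, which guides B cells into follicles, had a fold of 4.24 (88 fragments, 95% interval 70.6 to 108) at 1416 bp, inside the span of Bcl9l. It stood near the floor of the list, and 3.38% of genes with a summit had a lower value. The 12 receptor genes without a summit included Ccr2, the receptor gene of inflammatory monocytes, Ccr4, Ccr6, Ccr8 and Ccr9, and the CXC receptor genes Cxcr2, Cxcr3, Cxcr4 and Cxcr6.

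The Cxcr2 and Cxcr1 pair on chromosome 1 had 2 summits in 40.7 kb (4.91 per 100 kb), both at the Cxcr1 end, and Cxcr2 lay 29406 bp from the nearest.

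Sites at ligand and receptor genes were also set side by side for known partners. This was done for 16 receptors, without Cxcr1, and 4 of the 16 receptor genes had a summit, while 8 receptors had a ligand gene with one. For 1 of them, CCR10, both sides had a summit, at Ccr10 and Ccl27a. For 7 receptors, among them Ccr9, Cxcr2, Cxcr3, Cxcr4 and Cxcr6, at least 1 ligand gene had one and the receptor gene had none. For 3 (Ccr7, Cxcr5 and Cx3cr1) the receptor gene had one and its ligand genes had none, and for 5 (Ccr2, Ccr3, Ccr4, Ccr6 and Ccr8) neither side had one. A ligand gene can count for more than 1 receptor.

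Of the sites taken for lying within 10 kb of a chemokine gene, most had a chemokine gene as their nearest, and the rest lay closer to another gene. The choice by distance favours this, and no such count was made for other genes. Of the 34 distinct summits, 9 lay inside a chemokine gene and 3 reached 2 members each. The nearest protein-coding gene was a chemokine gene for 23 of the 34, that is 17 of 26 ligand summits and 6 of 8 receptor summits. For 6 of the 12 ligand genes (Cxcl12, Cxcl1, Cxcl9, Ccl6, Cxcl2 and Ccl4) and 3 of the 5 receptor genes (Ccr7, Cxcr1 and Cx3cr1) the strongest summit had the gene itself as its nearest. The 34 summits had a median fold of 7.43 and a median width of 1723 bp, and 19 of them were above the median fold of 6.81 of the whole ZT10 list, whose median width was 1679 bp.

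The 37 genes without a summit within 10 kb lay at varied distances from the nearest one. The median distance to the nearest summit was 58.7 kb for the 25 ligands and 64.3 kb for the 12 receptors, 21 of the 37 lay over 50 kb away and 11 over 100 kb. Of all 21521 protein-coding genes, 11786 had a summit within 10 kb and 15242 within 50 kb. Many genes outside the family thus also lay over 50 kb from any summit. Some strong sites lay just beyond the reach. Just inside 10 kb were sites at 9202 bp from Cxcl16 (fold 5.48), 9239 bp from Ccl6 (6.89) and 9897 bp from Cxcl1 (4.01). Just outside were sites at 10220 bp from Ccl9 (fold 15.4), 10572 bp from Cxcl10 (8.10) and 10981 bp from Ccl25 (6.03). The strongest within 50 kb of a member had a fold of 29.1 and lay 14645 bp from Ccr6, whose product guides lymphocytes to mucosal tissue, but closer to Mpc1, a mitochondrial pyruvate carrier gene 10623 bp away. One of fold 27.4 lay 23067 bp from Cxcr5 inside Bcl9l.

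The share of chemokine genes stayed below that of all genes at every reach tried. Chemokine genes are shorter, with a median span of 5.16 kb against 17.4 kb, and a short gene offers less room for a summit. The background of genes with a span of at most 10 kb was taken at the 10 kb reach only. The part of length in the gap at the other reaches was not tested. With summits inside the span alone the share was 16.2% of ligands and 11.8% of receptors, against 36.4% of all genes. Within 2 kb the shares were 24.3% and 23.5%, against 47.4%, and within 50 kb 59.5% and 64.7%, against 70.8%. The order of ligands and receptors thus turned at 50 kb. With peaks of a −log10 q of at least 10 the shares were 29.7% and 23.5%, against 46.3%, and with each summit given to its nearest gene only they were 29.7% and 17.6%, against 45.5%.

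**Figure D3:**
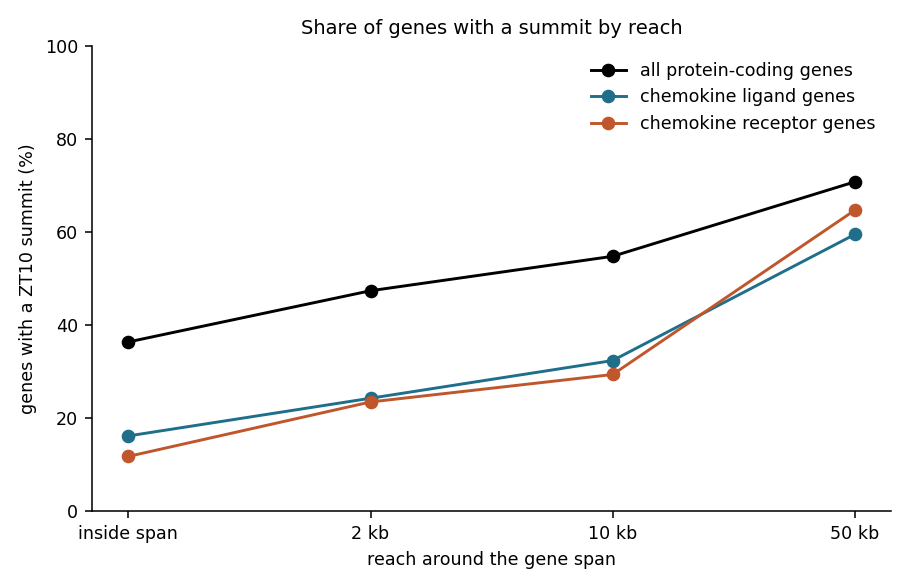
Share of genes (%) with a ZT10 summit inside the span or within 2, 10 or 50 kb of it, for all protein-coding genes (black), chemokine ligand genes (blue) and chemokine receptor genes (orange). Both chemokine lines lie below the black one at all 4 reaches, and they cross between 10 and 50 kb. The lines are not matched for length: the median span is 5.16 kb in chemokine genes and 17.4 kb in all genes.

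At annotated starts, ligands and receptors differed in the count. Of the 40 members with a RefSeq promoter entry, 6 of 27 ligand genes (Cxcl1, Cxcl9, Cxcl10, Ccl9, Ccl25 and Ccl27a) and 0 of 13 receptor genes had a ZT10 summit within 500 bp of a start, against 29.5% of all genes with an entry. This distance was chosen after seeing the data. At Ccl25 only the upstream start had a summit, and that start lies close to a start of Elavl1. The promoter of Ccl27a has a near copy at Ccl27b, so the origin of its start summits is uncertain. Among these 6, the summit at Cxcl1 was the highest (fold 14.9), followed by Cxcl9 (8.69), Cxcl10 (7.77), Ccl9 (6.89), Ccl25 (6.03) and Ccl27a, whose nearer summit had a fold of 5.34.

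Of the 5 promoters printed above, 2 hold the core motif AGGTCA. Motifs were searched on both strands in 47 windows of the 40 genes. AGGTCA was in 14 of the 47, and in 16.3% of the 32841 promoters in the table. In the printed promoters it lies in that of Cxcl9, 85 bases before the start, and in that of Ccl27a, 238 bases before it. The Cxcl9 window holds 0 summits, since its summit lies 493 bp after the start, while the Ccl27a window holds 1. The window of Ccl25 at its upstream start, not printed, has no AGGTCA. Those of Cxcl1 and Ccl9, each with a summit inside the window, have none. The variant TGGGTCA was in 4 windows (3.98% of all promoters), and in Cxcl10 it lies 142 bases before the start. A pair of AGGTCA motifs in the same orientation 2 bases apart, the RevDR2 element, was in 0 of the 47 windows and in 0.00913% of all promoters. The NF-κB consensus, a motif added after seeing the data, was in 9 windows (4.51% of all promoters), those of Cxcl1, Cxcl2, Cxcl3, Cxcl10, Ccl9, Ccl20, Ccl27a, Ccr3 and Ccr6. It is at 71 bases before the start in Cxcl1, at 103 and 159 in Cxcl10 and at 35 in Ccl9.

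The longer monomer site ANTAGGTCA, which contains TAGGTCA and AGGTCA, was in the windows of Ccl17, Ccl3 and Ccr6 and in 0.661% of all promoters. TAGGTCA was in 5 member windows, these and those of Cxcl9 and Cxcl13, and in 2.61% of all promoters. These 3 genes had 0 summits within 10 kb, and the 30 bases around the site are shown for that reason, with the 9 bases of the motif in capitals, on the reverse strand in Ccr6. A match is a description of letters and not a measured site.
Ccl17, chr8:94810417-94810446, plus strand: agagaggttaAATAGGTCAcctcaatgctg
Ccl3, chr11:83649548-83649577, minus strand: aagaagaaagAATAGGTCAcgagttgagag
Ccr6, chr17:8235989-8236018, plus strand: gtgaaatcatTGACCTAGTtacataagtgc

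The share was also taken over genes that work with the chemokines, beside the 54.8% of all protein-coding genes. Of 10 further genes of the chemokine system, among them atypical receptors, 3 had a summit: Ackr2, a scavenger of CC ligands, with a fold of 27.9, Xcr1 with 5.98 and Ccrl2 with 4.01. Of 25 genes that carry the signal of chemokine receptors, 17 (68.0%) had one, led by the receptor kinase gene Grk5 (38.2) and the G protein subunit genes Gnai3 (15.7) and Gnb1 (12.3). Of 26 genes that induce chemokines, 15 (57.7%) had one, near the share of all genes. They were led by the TNF receptor gene Tnfrsf1b (25), the interferon-responsive factor gene Irf1 (16.8) and the interleukin-1 receptor gene Il1r1 (14.4). Tnf, Il1b, Il6, Ifng and Tlr4 were among the 11 without. The signalling genes are longer, with a median span of 23.7 kb.

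Marker genes of liver cell types were counted in the same way, since most receptor genes are active in leukocytes. A summit lay within 10 kb of 8 of 8 hepatocyte markers, 4 of 8 endothelial, 3 of 8 stellate cell, 2 of 8 lymphocyte, 2 of 8 neutrophil and 0 of 8 Kupffer cell markers. Over all protein-coding genes the share was 54.8%. The median strongest fold at markers with a summit was 14.8 for hepatocytes, 11.8 for endothelium, 9.75 for neutrophils, 7.87 for lymphocytes and 6.53 for stellate cells. The highest single value was 24.2 at the endothelial marker Stab2, against 19.9 at Fgb, the highest of the hepatocyte markers. The part of cell makeup in the shares of ligand and receptor genes was not tested.

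**Figure D4:**
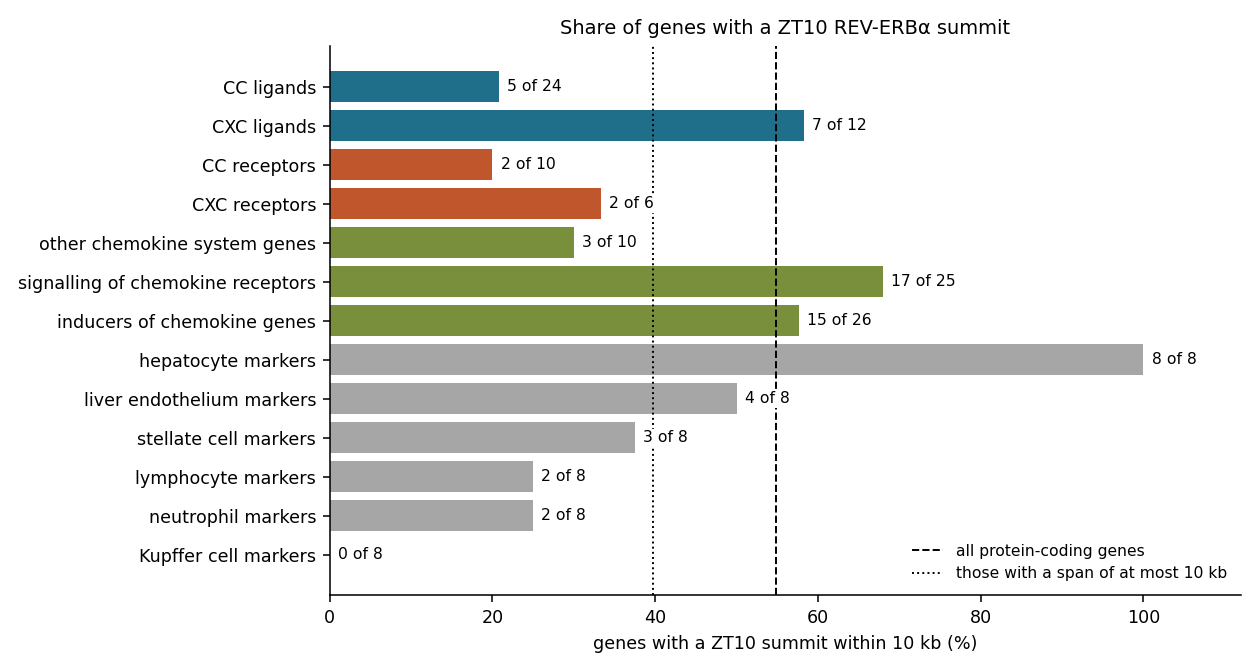
Share of genes (%) with a ZT10 summit within 10 kb in chemokine ligand genes (blue), receptor genes (orange), related gene lists (green) and cell type markers (grey), with counts beside the bars; Cx3cl1 and Cx3cr1 are in no bar. The dashed line is all protein-coding genes (54.8%) and the dotted line those with a span of at most 10 kb (39.7%); CXC ligands, signalling genes, inducers and hepatocyte markers lie above the dashed line.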

How the data were processed

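ChIP-seq peak lists of 3HA-tagged REV-ERBα from mouse liver were used, 1 for ZT10 and 1 for ZT22, each from 4 samples that the authors pooled, per the labels. The authors' fold is a ratio, the signal at a summit relative to its local background. For each peak the authors' lists also give −log10 p, −log10 q and a deposited score, 10 times the −log10 q without decimals, which was not used. Nuclei were fixed with formaldehyde and then EGS, and libraries were made with Tn5, per the labels' protocols. MACS2 2.1.2, BWA 0.7.17, SAMtools 1.9, Picard 2.18.12, cutadapt 2.3, deepTools 3.3.0, bcl2fastq 2.17 and build mm10 are named in the submitters' processing notes, and their roles and the control library are not given in the sources used here.

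Gene spans and promoter sequences came from RefSeq tables of GRCm38.p6, which shares mm10 coordinates, and 110 protein-coding genes on scaffolds were left out. A gene was linked to each summit inside its span or within 10 kb (pandas 2.3.3). Fragments at a summit were solved from fold and −log10 p with a pseudocount of 1 and a Poisson tail (SciPy 1.17.1). At ZT10, 87.0% of peaks had the lowest background of 4.14, at ZT22 69.4%, and all of these came within 0.1 of a whole number. The solver and the counts were tested on simulated data. No test was run, since 1 pooled list per time has no spread.

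Every member with a summit within 10 kb is named with its values, the others by group, and related lists by counts with their 3 strongest genes. Members and lists were chosen with earlier results of these data known. Alternatives were reaches of 0, 2 and 50 kb, a −log10 q of at least 10, the nearest gene only and a pseudocount of 0. A distance of 500 bp from a start, the background of short genes and the NF-κB motif were chosen after seeing the data. Promoter windows were found for 40 of the 54 members. Values of some items are not reported here.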

Additional observations from a re-analysis of the deposited data

How the results depend on the processing

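With a reach of 2 kb the median strongest fold was 7.77 in ligands and 8.37 in receptors, with 17 distinct summits. With 50 kb, 33 members (22 ligands and 11 receptors) had a summit, the ligand median was 11.4 and there were 94 distinct summits. Inside the span only, 8 members (6 and 2) had one, with medians of 7.20 and 7.13 and 9 distinct summits. With a −log10 q of at least 10 the receptor median was 9.13. With the nearest gene only, 3 receptors had a summit and the ligand median was 6.89, so the order of the medians turned at 2 kb and with the nearest gene. Within 500 bp of a start, a distance chosen after seeing the data, 6 members had a summit, 6 ligands and 0 receptors. Wider or narrower reaches count more or fewer summits by construction. The other counts stayed within 1.5 times the reported ones, and 0 members had a ZT22 summit under each alternative run at that time. With a pseudocount of 0, 20.3% of ZT10 and 24.0% of ZT22 summits came out whole. Sites below a fold of 4.01, and spans in place of starts for genes without a promoter entry, limit what could be seen. No paired analysis was possible because the samples of a time were pooled into 1 list, which also leaves no replicate to leave out.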
